A study of Mus musculus with 6 samples.

Results

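The mitochondrial ribosomal protein genes were taken as every row of the deposited count table whose gene symbol begins with Mrpl or Mrps followed by a digit. This gave 77 of 23951 genes, of which 48 carry a large subunit symbol (Mrpl) and 29 a small subunit symbol (Mrps). They were followed in HSCs (haematopoietic stem cells) of C57BL/6 mouse fetal liver, in 3 libraries with a knockout of Uqcrfs1 (KO) and 3 wild type libraries (WT). Uqcrfs1 encodes RISP, the Rieske iron-sulfur protein, which passes electrons on within respiratory complex III. The sources used here do not give the embryonic age, how the deletion was driven, the sorting gate or any pooling, and they do not say that each library is a separate embryo. The p-values thus measure spread among libraries, some of which may be technical.

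The mitochondrial ribosome translates the few messages of the mitochondrial genome, which encode core subunits of the respiratory chain and of ATP synthase, complex III among them through cytochrome b. Its ribosomal RNAs come from mitochondrial DNA, but every protein of its large and small subunits is encoded in the nucleus, made in the cytosol and imported. Many of these proteins descend from bacterial ribosomal proteins, and others are specific to mitochondria. Symbols follow the subunit with known exceptions: in the mammalian structure the products of Mrps18a and Mrps30 sit in the large subunit, and the product of Mrps36 is now known as a component of the 2-oxoglutarate dehydrogenase complex rather than of the ribosome.

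Total counts were 12020128 to 14590844 in KO libraries and 10191354 to 13189329 in WT libraries. Uqcrfs1 had 4.33, 3.40 and 3.08 CPM (counts scaled to a common library size after TMM) in KO replicates 1 to 3, against 77.3, 122.9 and 61.0 CPM in WT replicates 1 to 3, as the genotype labels have it in each of the 6. All 12 HSC and progenitor markers were detected (1 called higher and 4 lower in KO) and summed to 2150 to 2313 CPM in KO and 2480 to 2984 CPM in WT. Xist and Y-linked reads occurred together in KO replicate 3 (16004 and 604 counts), WT replicate 2 (5842 and 836) and WT replicate 3 (8988 and 1022). KO replicate 1 had 13480 and 0 counts, KO replicate 2 had 0 and 2358, and WT replicate 1 had 13062 and 13. These sex-linked counts thus differed between libraries of the same group. The sums of the erythroid, macrophage, and mast cell and basophil marker lists did not overlap between the groups, and neither did the HSC sum. Single genes such as Tfrc (erythroid) and Cd68 (macrophage) did overlap. Car2 alone stood at 140.5 to 204.4 CPM in KO and 280.3 to 420 CPM in WT within the erythroid sum. The summed erythroid list (10 of 11 genes in the table, of which 0 were called higher and 5 lower in KO) stood at 256 to 278 CPM in KO and 549.7 to 959 CPM in WT, with Hbb-b1, Hba-a1 and Hba-a2 listed at 0 in every library. The macrophage list (9 of 10 genes in the table, 0 higher and 1 lower) summed to 88.5 to 140.03 CPM in KO, 196 and 349.8 CPM in WT replicates 2 and 1, and 1035 CPM in WT replicate 3, which stood apart. The mast cell and basophil list (5 genes, 1 higher and 0 lower, Fcer1a at 0 in every library) summed to 8.65 to 48.3 CPM in KO and 2.10 to 7.25 CPM in WT. In such bulk libraries, fewer cells of a type and less RNA per cell cannot be told apart. The part of these markers in the results below was not tested. The calls without WT replicate 3 are given beside each called member.

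Of the 77 members, 3 were called between KO and WT HSCs in the main fit. Mrpl33 and Mrps33 were lower and Mrps26 was higher in KO, and only the call of Mrpl33 held whichever library was left out. All 77 genes passed the filter on low counts, with between 94 and 1620 counts for any gene in any library, so no member was lost to low expression. A gene was called where its Benjamini-Hochberg adjusted p over the 12204 genes tested was under 0.05 (edgeR quasi-likelihood test). By this rule 1 member rose and 2 fell, or 3.9% of the members, against 11.4% of all genes tested, so the share among members was below that of the table. At an unadjusted p under 0.05 there were 8 members (10.4%), against 25% of all genes. The share called higher was 6.41% over all genes, and the share called lower was 4.99%. The median log2 fold change of the 77 members was -0.070, with quartiles of -0.31 and 0.19, beside a median of -0.024 and quartiles of -0.38 and 0.33 over all genes tested. The members therefore spread over a narrower range than genes at large, around nearly the same centre. They also differed in level. The median of the mean CPM was 37.0 for members and 28.5 for all genes tested, and the lowest mean was 12.1 and 0.52 CPM. The part of level in the narrower spread and the lower share called was not tested.

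**Figure D1:**
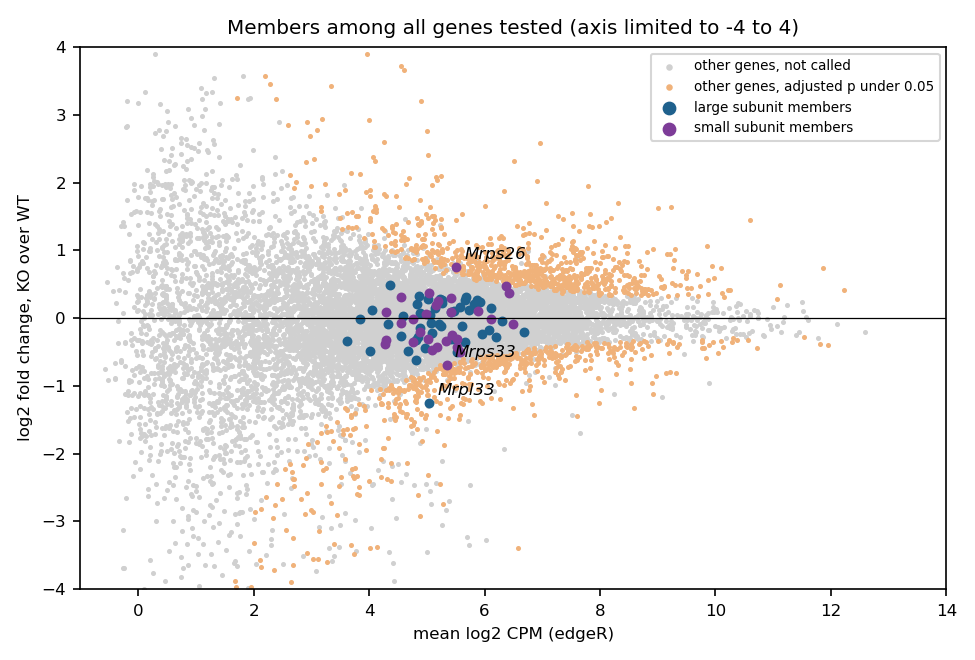
Each point is a gene tested; the horizontal axis is its mean log2 CPM and the vertical axis its log2 fold change, KO over WT, limited to -4 to 4 (81 genes lie outside the axes). Blue points are large subunit members and purple points small subunit members, orange points other genes called at an adjusted p under 0.05; the members lie close to 0, and the 3 called ones are named.

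Mrpl33 encodes the mitochondrial counterpart of bacterial ribosomal protein L33 in the large subunit. It stood at 17.4, 25.4 and 15.1 CPM in KO replicates 1 to 3, against 40.1, 54.7 and 43.6 CPM in WT replicates 1 to 3. The groups did not overlap, and the highest KO library was well below the lowest WT library. The mean was 19.3 ± 5.41 CPM in KO and 46.1 ± 7.59 CPM in WT (SD, n = 3 each), with a log2 fold change of -1.25, a standard error (SE) of 0.26 and a 95% interval of -1.80 to -0.71 (edgeR, adjusted p = 0.00329). It was the only member whose call held whichever library was left out, with a highest adjusted p of 0.0268, and its log2 fold change without WT replicate 3 was -1.29. It did not pass in limma on log2(RPKM + 1) without a filter on low values (adjusted p = 0.0574), where 166 genes were called. In the authors' RPKM, which scale by gene length, it stood at 71.2 ± 18.2 in KO and 166 ± 29.7 in WT (SD, n = 3 each). Its annotated transcript is short, with a median length of 478 nt, against 1047 nt for the members and 2180 nt for all genes tested. With offsets for length and GC content the log2 fold change of Mrpl33 was -1.03, past the threshold (edgeR, adjusted p = 0.0110).

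Mrps33 encodes a protein of the small subunit that has no bacterial counterpart. Its level was 33.5, 28.7 and 30.4 CPM in KO replicates 1 to 3, against 49.5, 50.7 and 50.1 CPM in WT replicates 1 to 3. All KO libraries were below all WT libraries, and the WT libraries were almost equal. It fell by 0.70 on the log2 scale (SE 0.21, 95% interval -1.13 to -0.27, edgeR adjusted p = 0.0326). The call did not hold without any 1 of the 6 libraries, with adjusted p of 0.05005 to 0.131 (0.0674 without WT replicate 3), nor in limma without a filter (0.0568), nor with length and GC offsets, under which the log2 fold change was -0.47 (adjusted p = 0.174).

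Mrps26, which encodes another small subunit protein specific to mitochondria, was the only member called higher. It stood at 42.8, 58.1 and 69.6 CPM in KO replicates 1 to 3, against 31.7, 40.4 and 29.0 CPM in WT replicates 1 to 3. Every KO library was above every WT library, though KO replicate 1 was close to WT replicate 2. The log2 fold change was 0.75 (SE 0.23, 95% interval 0.28 to 1.22, edgeR adjusted p = 0.0340). The call was lost without KO replicate 2, KO replicate 3, WT replicate 1 or WT replicate 3, the highest adjusted p being 0.201 without KO replicate 3, where the log2 fold change was 0.58 (adjusted p = 0.102 without WT replicate 3). It was also lost with limma on log2(RPKM + 1), with an adjusted p of 0.0940. The call held with length and GC offsets. These used an annotated transcript length of 4278 nt for Mrps26, against a median of 1047 nt for the members. Exons of 4930473A02Rik overlap Mrps26 on the other strand, and since the strand setting of the counting is not given, reads of both genes cannot be told apart. 4930473A02Rik itself had 0.216, 0.866 and 0 CPM in KO replicates 1 to 3 and 0 CPM in every WT library. In the authors' RPKM it stood at 3.61, 4.91 and 4.34 in KO replicates 1 to 3, against 1.14, 2.12 and 2.52 in WT replicates 1 to 3, so that all KO libraries were above all WT libraries, as for Mrps26. Its part in the Mrps26 call was not tested.

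**Figure D2:**
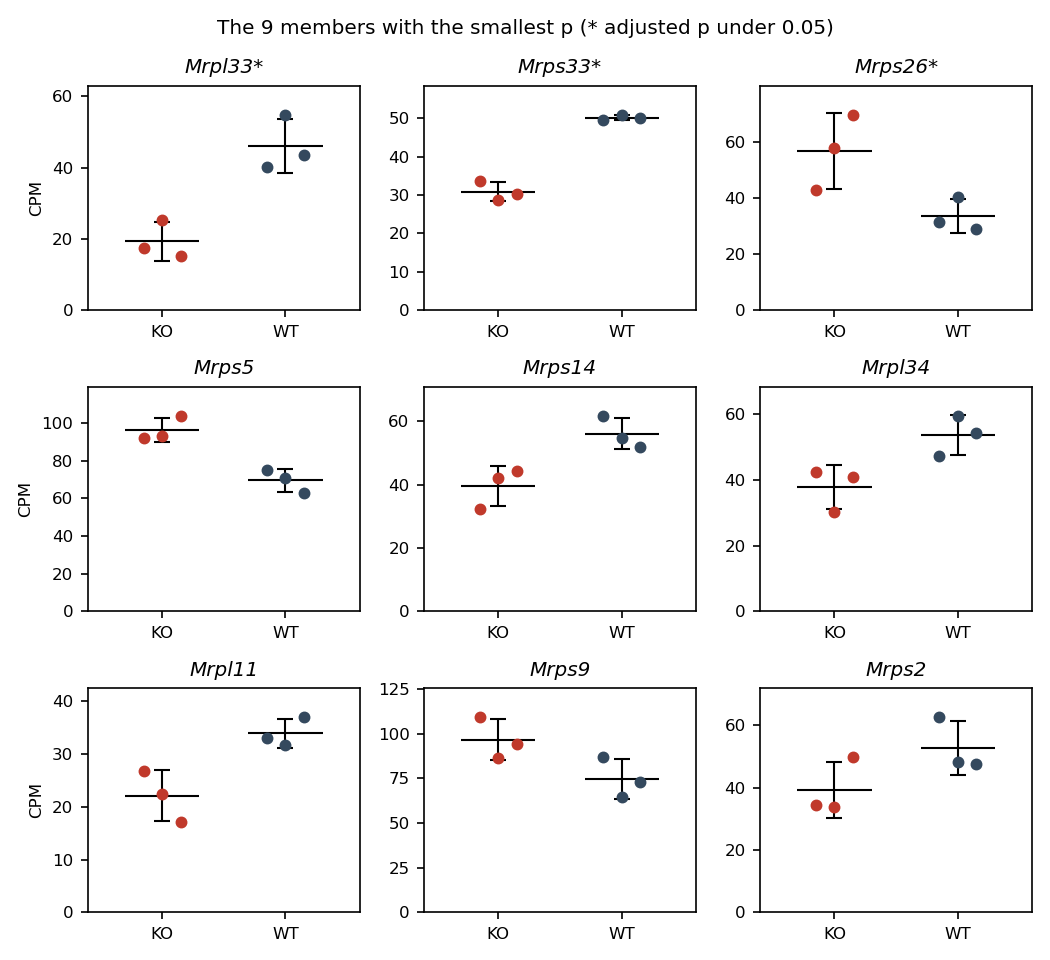
CPM of the 9 members with the smallest p, 1 panel per gene, with KO libraries in red at the left and WT libraries in dark blue at the right of each panel; points are libraries, horizontal bars the mean and error bars the SD (n = 3 each). An asterisk marks the 3 genes called (Mrpl33, Mrps33 and Mrps26), whose groups do not overlap.

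The start regions of these 3 genes are shown because all of them hold the ETS core CCGGAAG, a motif class bound by GABP, a regulator known from many nuclear genes of mitochondria. The sequences are those of RefSeq on GRCm38.p6 and are written 5′ to 3′ along the strand of the gene, with matches on either strand in capitals. Those of Mrpl33 and Mrps26 run from 120 bases before the annotated start to 10 after it, and that of Mrps33 is the 30 bases around its match.
Mrpl33, chr5:31613831-31613960, plus strand: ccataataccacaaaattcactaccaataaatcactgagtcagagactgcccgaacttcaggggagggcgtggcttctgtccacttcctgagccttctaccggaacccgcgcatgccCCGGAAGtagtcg
Mrps26, chr2:130563637-130563766, plus strand: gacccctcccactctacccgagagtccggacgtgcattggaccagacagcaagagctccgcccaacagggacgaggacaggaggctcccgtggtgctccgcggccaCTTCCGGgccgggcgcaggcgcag
Mrps33, chr6:39810887-39810916, minus strand: aagtaaaggggggcgggcCTTCCGGggacg

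The Mrpl33 match spans the annotated start, the Mrps26 match begins 14 bases before it, and the Mrps33 match lies in the first 50 bases of the transcript. Of the 68 members with a RefSeq promoter of 300 bases (250 before to 50 after the start), 25 held CCGGAAG on either strand, or 36.8%, against 12.9% of the 17795 genes of the count table with such a promoter. That background was not limited to the 12204 genes tested, while every member passed the filter on low counts. The shares are thus not set against expressed genes alone. The YY1 core AAGATGGC was found in 12 of 68 (17.6%, against 3.61% of all promoters) and the NRF1 core (GCGCA followed directly by TGCGC) in 3 of 68 (4.41%, against 1.45%). In all, 36 of 68 members (52.9%) held at least 1 of these motifs, against 16.9% of all promoters. The share was 22 of 42 for large subunit genes and 14 of 26 for small subunit genes. None of these motifs contains another, both strands were searched, and genes with several annotated starts counted once if any window held a match. The median log2 fold change was -0.12 for the 25 members with the ETS core and -0.076 for the 43 without it, and the 3 called members were among the 25. A match is a description of the letters and not evidence of binding.

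Large and small subunit genes were then set side by side, since a ribosome is built of both. Of 48 large subunit genes 0 rose and 1 fell, and of 29 small subunit genes 1 rose and 1 fell. The shares called were 2.08% and 6.9%, against 11.4% of all genes tested (6.41% higher and 4.99% lower). At an unadjusted p under 0.05 the numbers were 3 of 48 (6.25%) and 5 of 29 (17.2%), against 25% of all genes tested, and no large subunit gene was called higher by DESeq2 or by limma either. The median log2 fold change was -0.059 for the large and -0.070 for the small subunit. With offsets for length and GC content these medians were 0.080 and 0.041, so the sign of either median depends on this choice, and the median of all genes was then 0.038. Moving Mrps18a and Mrps30 to the large subunit and leaving out Mrps36 gave -0.059 and -0.13.

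The summed message overlapped between the groups. Large subunit genes summed to 1991, 1914 and 1809 CPM in KO replicates 1 to 3, against 1831, 2116 and 1985 CPM in WT replicates 1 to 3. Small subunit genes summed to 1251, 1151 and 1195 CPM in KO replicates 1 to 3, against 1202, 1248 and 1198 CPM in WT replicates 1 to 3. The KO mean was 0.963 of the WT mean for the large and 0.986 for the small subunit. The ratio of the large to the small sum was 1.59 ± 0.0746 in KO and 1.63 ± 0.0903 in WT (SD, n = 3 each), a difference smaller than the spread between libraries. No test was made on these sums, since they are scores over the members.

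**Figure D3:**
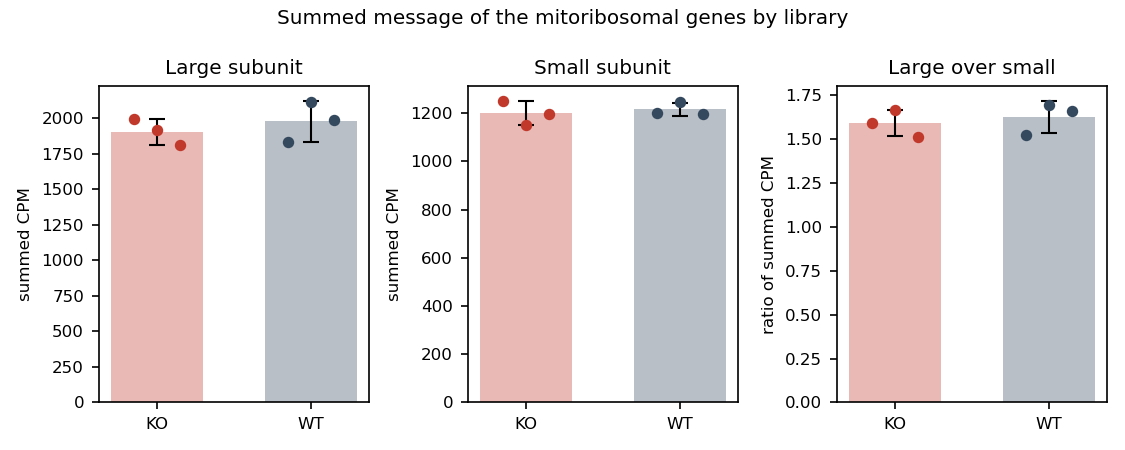
Summed CPM of the 48 large subunit and 29 small subunit genes and the ratio of both sums, for KO (left) and WT (right); points are libraries, bars the mean and error bars the SD (n = 3 each), on axes that start at 0. KO and WT libraries overlap in each panel.

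For most members the data bound the change. The 95% interval of the log2 fold change lay within -1 and 1 for 66 of 77 members (85.7%), against 51.1% of all genes tested. It lay within -0.5 and 0.5 for 4 members (5.19%), against 12.7% of all genes, so smaller shifts of single members could not be bounded with 3 libraries a group. The median SE was 0.23 for members and 0.28 for all genes. The 8 members whose interval reached past 1 without a call were Mrpl11, Mrpl14, Mrpl16, Mrpl21, Mrpl41, Mrpl55, Mrps6 and Mrps12, all with a mean level below the members' median of 37.0 CPM.

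**Figure D4:**
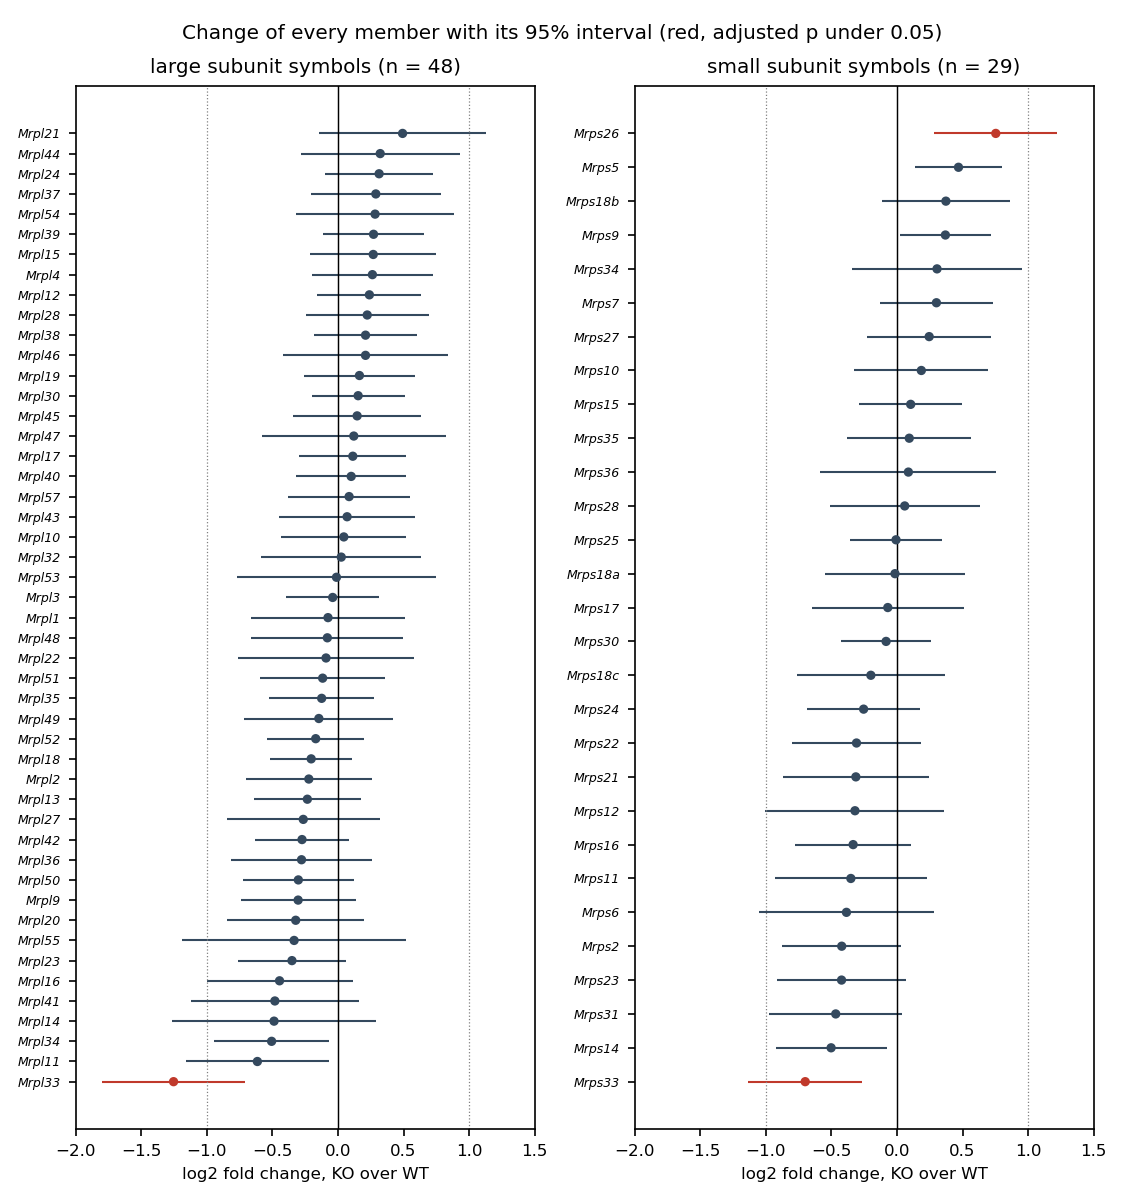
Log2 fold change (KO over WT) of all 77 members with its 95% interval, large subunit symbols at the left and small subunit symbols at the right, ordered by value; red marks an adjusted p under 0.05 and dotted lines a log2 fold change of -1 and 1. Intervals of 66 members lie between the dotted lines.

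Among large subunit genes below the threshold, those of the stalk, which recruits translation factors, did not pass. Mrpl11, the counterpart of the protein at the stalk base, had 26.8, 22.5 and 17.0 CPM in KO replicates 1 to 3, against 33.1, 31.7 and 36.9 CPM in WT replicates 1 to 3. Its groups did not overlap, but the log2 fold change was -0.61 (edgeR, adjusted p = 0.141). Mrpl10 and Mrpl12, which build the stalk itself, had log2 fold changes of 0.044 and 0.24 (edgeR, adjusted p = 0.935 and 0.479). Mrpl12, whose product is also known to bind the mitochondrial RNA polymerase, stood at 65.3 ± 9.64 CPM in KO and 55.3 ± 9.04 CPM in WT (SD, n = 3 each).

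Mrpl3, whose product lies near the peptidyl transferase centre, had 77.5 ± 14.5 CPM in KO and 79.7 ± 3.92 CPM in WT (SD, n = 3 each), and its log2 fold change was -0.041, with a sign that turned under 7 of the alternatives. Mrpl23 and Mrpl24, counterparts of proteins at the exit of the peptide tunnel, lay on opposite sides of 0 with non-overlapping groups, at -0.35 and 0.31 (edgeR, adjusted p = 0.288 and 0.348). Mrpl34, the counterpart of bacterial L34, had 42.5, 30.1 and 40.7 CPM in KO replicates 1 to 3 and 47.3, 59.3 and 54.2 CPM in WT replicates 1 to 3, and did not pass (log2 fold change -0.51, edgeR adjusted p = 0.131). The other large subunit genes with small p were Mrpl16, Mrpl21, Mrpl41, Mrpl42 and Mrpl50, with log2 fold changes of -0.48 to 0.49 and adjusted p of 0.322 to 0.386 (edgeR), so none of them passed. Mrpl44, which encodes a relative of ribonuclease III and is a gene of inherited cardiomyopathy in humans, varied widely within KO, at 45.4, 32.2 and 19.3 CPM in KO replicates 1 to 3, against 27.9, 27.6 and 22.1 CPM in WT replicates 1 to 3.

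Among small subunit genes, Mrps5 came closest to the threshold without passing. Its product corresponds to bacterial S5, at the entry of the messenger RNA channel. It had 92.1, 93.3 and 103.6 CPM in KO replicates 1 to 3, against 75.3, 70.7 and 62.9 CPM in WT replicates 1 to 3. Every KO library was above every WT library, with a log2 fold change of 0.47 and an SE of 0.16 (edgeR, adjusted p = 0.0587). It passed with DESeq2 (adjusted p = 0.0360) and with length and GC offsets (adjusted p = 0.0354), and its highest adjusted p without 1 library was 0.203.

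Proteins of the small subunit head lay on both sides of 0. Mrps9 was at 96.6 ± 11.5 CPM in KO and 74.8 ± 11.3 CPM in WT, and Mrps14 at 39.6 ± 6.39 CPM in KO and 56.1 ± 4.94 CPM in WT (SD, n = 3 each). Their log2 fold changes were 0.37 and -0.50 (edgeR, adjusted p = 0.166 and 0.120), and the groups overlapped for Mrps9 and not for Mrps14. Mrps31 was at -0.47 (edgeR, adjusted p = 0.244). Among other small subunit genes, Mrps2 was at -0.42, Mrps23 at -0.42, Mrps16 at -0.33 and Mrps18b at 0.37 (edgeR, adjusted p = 0.241, 0.285, 0.355 and 0.351), and none passed. Mrps12, the counterpart of the decoding centre protein S12, had 17.2 ± 2.34 CPM in KO and 21.5 ± 7.07 CPM in WT (SD, n = 3 each), with WT replicate 1 at 13.3 CPM below all other libraries. Mrps22, a gene of inherited respiratory chain disease in humans, had a log2 fold change of -0.31 (edgeR, adjusted p = 0.459), and Mrps28 one of 0.059 (adjusted p = 0.927).

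Mouse cells have 3 relatives of bacterial S18, and they were compared because their products occupy different places in the ribosome. Mrps18a, of the large subunit, had 26.9 ± 1.58 CPM in KO and 27.1 ± 3.43 CPM in WT. Mrps18b had 37.0 ± 3.47 CPM in KO and 28.6 ± 3.63 CPM in WT, with all KO libraries above all WT libraries. Mrps18c, which takes the place of S18 itself, had 27.2 ± 0.862 CPM in KO and 31.2 ± 9.89 CPM in WT (SD, n = 3 each throughout). None of the 3 passed the threshold (edgeR, adjusted p = 0.981, 0.351 and 0.713). Mrps30, the other small subunit symbol whose product sits in the large subunit, was among the most abundant by CPM, at 87.5 ± 12.8 in KO and 92.8 ± 11.9 in WT (edgeR, adjusted p = 0.815). Mrps36, the dehydrogenase component, had 20.03 ± 5.76 CPM in KO and 18.8 ± 3.97 CPM in WT (SD, n = 3 each; edgeR, adjusted p = 0.907).

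Members were also split by descent. Of the 48 members with a bacterial counterpart 0 rose and 1 fell, with a median log2 fold change of -0.11, and of the 28 specific to mitochondria 1 rose and 1 fell, with a median of 0.031 (Mrps36 was counted in neither). The shares called were 2.08% and 7.14%, against 11.4% of all genes tested. The classification was by homology, so that Mrps18a, Mrps18b and Mrps18c were all counted with a bacterial counterpart, as relatives of S18.

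Groups that did not overlap, with all 3 KO libraries on one side of all 3 WT libraries, were seen for 7 members above and 9 below WT. These 16 are 20.8% of the members, against 30.2% of all genes tested. Beside the genes already named, they included Mrpl37 and Mrps7 above WT and Mrpl20 below WT, none of which passed the threshold (edgeR, adjusted p = 0.498, 0.400 and 0.470).

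**Figure D5:**
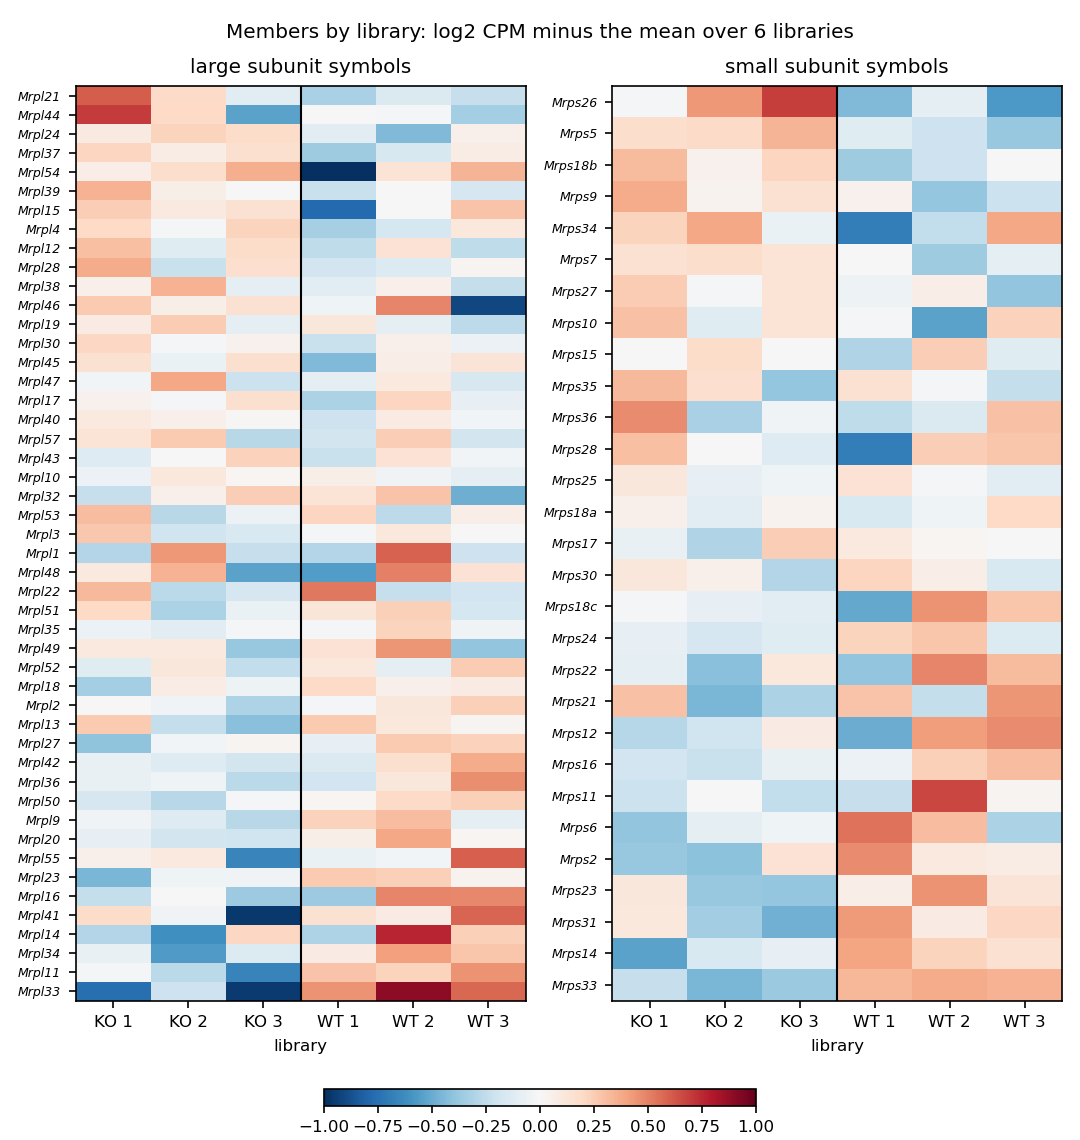
Log2 CPM of each member minus its mean over the 6 libraries, with genes in rows ordered by log2 fold change and libraries in columns, KO at the left and WT at the right of the line; red is above and blue below the gene's mean. Single libraries stand out for many genes, such as WT 1 for Mrpl54 and KO 3 for Mrpl41.

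Much of the variation among members lay between libraries of the same group. WT replicate 1 and KO replicate 3 held the lowest CPM of the 6 libraries for 20 members each and KO replicate 2 for 17, against 5 for KO replicate 1, 4 for WT replicate 2 and 11 for WT replicate 3. WT replicate 1 was thus lowest for 26% of the members and for 20% of all genes tested, and KO replicate 3 for 26% and 16.8%. Mrpl54 was an example, with 37.2, 40.1 and 45.8 CPM in KO replicates 1 to 3, against 16.9, 39.1 and 45.03 CPM in WT replicates 1 to 3, where WT replicate 1 lay far below the other 5 libraries. The median SD of log2 CPM within a group was 0.21 for members in KO and in WT, beside 0.26 in KO and 0.30 in WT for all genes.

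Per length, in the authors' RPKM, the members differed widely in level. They are ordered here by the mean over all 6 libraries, and the order differed between the groups. Mrpl52 was highest, at 248.6 ± 33.4 RPKM in KO and 291 ± 31.5 RPKM in WT. Mrpl30 followed at 152 ± 14.4 RPKM in KO and 131 ± 11.3 RPKM in WT, Mrpl42 at 129 ± 5.08 in KO and 147 ± 25.8 in WT, and Mrps21 at 118 ± 38.0 in KO and 149 ± 30.8 in WT. These 3 overlapped in WT, while in KO all libraries of Mrpl30 (140.2 to 168 RPKM) lay above all of Mrpl42 (123.4 to 132.6 RPKM). Within WT alone, Mrpl33 was second, at 166 RPKM. Lowest were Mrpl19, at 13.5 ± 0.464 RPKM in KO and 11.0 ± 1.61 in WT, Mrpl17, at 11.95 ± 0.805 in KO and 11.1 ± 2.18 in WT, and Mrpl11, at 6.90 ± 1.93 in KO and 11.3 ± 1.01 in WT (SD, n = 3 each throughout). Mrpl19 and Mrpl17 overlapped in WT and not in KO. Within KO alone, Mrpl41 lay below both, at 11.55 ± 5.02 RPKM (SD, n = 3). By mean CPM over the 6 libraries, which also rises with transcript length, Mrpl18 was the highest of the large subunit genes, at 95.9 ± 13.8 in KO and 110.5 ± 5.50 in WT, and Mrpl55, Mrpl53 and Mrpl14 were the lowest, at 10.7, 14.2 and 13.3 CPM in KO and 13.5, 14.3 and 18.6 CPM in WT. Within WT alone, Mrpl47 (15.65 CPM) and Mrpl21 (16.9 CPM) lay below Mrpl14. Mrps6, Mrps12 and Mrps36 were the lowest small subunit genes, at 19.3, 19.4 and 19.4 CPM over the 6 libraries. For Mrpl15 and Mrpl22 the ratio of RPKM to CPM differed more than 1.5 times between libraries.

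Some of these counts carry uncertainty from shared sequence. In GENCODE M21, exons of 17 members overlap another gene of the count table, 16 of them a gene on the other strand and 1, Mrps6, a gene on the same strand (Slc5a3). A transcript that matched at least 50% of the member's own transcript at 95% identity or more was found as a processed pseudogene for 6 members, Mrpl22, Mrpl23, Mrpl27, Mrpl42, Mrps10 and Mrps21. Mrps25 and Mrps34 matched transcripts of Nr2c2 and Mapk8ip3 in this way. Mrps18b matched an antisense transcript, Gm16279, and Mrpl53 a transcript of Gm42688, neither of which has a row in the count table. Of the called genes, Mrps26 is among the first and none among the second. The members lie on 17 chromosomes, and 19 have a coding gene whose start faces theirs within 1 kb, such as Mrpl10 with Lrrc46, Mrps12 with Sars2 (the mitochondrial seryl-tRNA synthetase gene) and Mrpl36 with Ndufs6 (a complex I subunit gene). In such shared promoters the genes are read in opposite directions from one start region.

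Mitochondrial ribosomal proteins with other symbols were followed as well. Of 6 such genes, 0 were called by edgeR, DESeq2 or limma, against 11.4% of all genes tested called in edgeR. At an unadjusted p under 0.05 in edgeR there were 2 (33.3%), against 25% of all genes. Gadd45gip1, also known as Crif1, encodes a large subunit protein at the tunnel exit, and stood at 88.6, 99.0 and 100.3 CPM in KO replicates 1 to 3, against 38.4, 76.2 and 77.4 CPM in WT replicates 1 to 3 (edgeR, adjusted p = 0.0911). All KO libraries were above all WT libraries, of which replicate 1 was far lower than replicates 2 and 3. Gadd45gip1 passed in separate edgeR settings. These had the replicate number as a block, the Y-linked level as a term, no filter on low counts, or WT replicate 3 left out. Ptcd3, an RNA-binding protein of the small subunit, stood at 89.0 ± 14.3 CPM in KO and 66.7 ± 1.71 CPM in WT (SD, n = 3 each; edgeR, adjusted p = 0.120), and passed with length and GC offsets. Dap3, a GTP-binding protein of the small subunit, Aurkaip1, Chchd1 and Ict1, a release factor built into the large subunit, had log2 fold changes of 0.17, 0.18, 0.011 and -0.25 (edgeR, adjusted p = 0.607, 0.563, 0.986 and 0.693).

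The rest of mitochondrial translation also held 0 called genes in edgeR, DESeq2 and limma. Of 12 translation factors, which start, extend and end the peptide, 0 had an unadjusted p under 0.05 (edgeR), against 25% of all genes tested. Tufm, the elongation factor that brings in transfer RNA, was at 99.6 ± 4.55 CPM in KO and 109.6 ± 9.26 CPM in WT (SD, n = 3 each), and its partner Tsfm had the largest log2 fold change of the list, 0.69 (edgeR, adjusted p = 0.252). Of 27 assembly and ribosomal RNA factors 3 had an unadjusted p under 0.05 (11.1%). These were the helicase genes Dhx30, at 105 ± 10.5 CPM in KO and 78.3 ± 6.51 CPM in WT, and Ddx28, at 7.65 ± 1.42 CPM in KO and 14.7 ± 3.19 CPM in WT, and the ribosomal RNA methyltransferase gene Mrm1, at 18.9 ± 4.76 CPM in KO and 10.7 ± 0.618 CPM in WT (SD, n = 3 each; edgeR, adjusted p = 0.0792, 0.167 and 0.152). Of 5 activators and insertion factors, 1 had an unadjusted p under 0.05: Lrpprc, which stabilises mitochondrial messages, at 181 ± 7.16 CPM in KO and 145 ± 3.34 CPM in WT (SD, n = 3 each; edgeR, adjusted p = 0.0874), which passed with length and GC offsets.

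Beside the members, cytosolic ribosomal protein genes (Rpl, Rps) had 1 of 79 higher and 10 lower, with a median log2 fold change of -0.14, and nuclear subunits of complexes I and IV and of ATP synthase had 0 of 65 higher and 5 lower, with a median of -0.26. The shares called were 13.9% and 7.69%, against 11.4% of all genes tested (6.41% higher and 4.99% lower). The median SE was 0.095 and 0.17 in these families, at median levels of 1128 and 84.7 CPM, against 0.23 at 37.0 CPM for the members, so the families were measured with different precision. No test of the difference between families was made.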

How the data were processed

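The authors deposited a table of counts and a table of RPKM by gene symbol, each with 6 columns matched to samples by genotype and replicate number in their names. The deposited counts are whole numbers without normalization, and the deposited RPKM are, by their name, scaled by gene length and library size. The RPKM are not these counts rescaled for every gene. 4930473A02Rik had 0 counts in KO replicate 3 and in every WT library, but 4.34 RPKM in KO replicate 3 and 1.14 to 2.52 RPKM in WT. Per the submitters' processing notes, TopHat and Cufflinks were used on mm9; the sources used here do not give versions, counter, annotation or strand setting. A stranded low-input kit was used on nanograms of RNA, per the labels' protocols. Rn45s took 9.92%, 6.69% and 4.96% of counts in KO replicates 1 to 3, against 11.7%, 10.5% and 11.3% in WT replicates 1 to 3. The groups thus did not overlap in this share, and its part in the results was not tested. TMM scaling was used.

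The test was edgeR's robust quasi-likelihood F test (version 4.0.16, R 4.3.3) on the counts, after TMM and filterByExpr, with genotype alone in the model, and adjusted over 12204 genes. The SE is the log2 fold change over the square root of F. Alternatives used DESeq2 1.42.0, limma 3.58.1 on log2(RPKM + 1) or log2(RPKM + 0.1), other scalings and filters, a replicate block, a Y-linked covariate, length and GC offsets and left-out libraries. Limma fold changes are on the log2(RPKM + pseudocount) scale. The fit was tested on simulated data. Members, lists and tests were chosen with earlier results of these data known. Members named are those called, the 10 smallest p of each subunit, the 3 highest and lowest levels of each and a set fixed for role; other mitochondrial translation genes are named where called, and the remaining ones were chosen after their values were seen. Hepatoblast and endothelial marker lists had 2 of 7 and 1 of 4 genes lower and 0 higher. Promoters are RefSeq, GRCm38.p6; overlaps are from GENCODE M21, a different build from that of the files. Replicate pairs differed by 22.4 to 44.8 chi-square per degree of freedom, so each library counted once.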

Additional observations from a re-analysis of the deposited data

How the results depend on the processing

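The count of 1391 called genes was 583 and 560 with limma on log2(RPKM + 1) and log2(RPKM + 0.1), 166 without a filter, 1778 in edgeR without a filter, 1801 with DESeq2, and 712 to 1263 with 1 library left out, lowest without KO replicate 2 (712) and KO replicate 3 (833). With length and GC offsets 883 genes were higher and 406 lower, against 782 and 609. Members called higher numbered 1, but 2 with DESeq2 and with length and GC offsets, 0 with each limma setting and 0 to 1 with 1 library left out. Members called lower numbered 2, but 1 with length and GC offsets, 0 with limma without a filter (unadjusted p under 0.05 for 11 members) and 1 without any 1 library. Mrpl33 had an adjusted p of 0.0574 there. The median of the large subunit was 0.080 with length and GC offsets and -0.11 to 0.049 with 1 library left out, positive without KO replicate 3 or WT replicate 2. That of the small subunit was 0.041 with the offsets and -0.16 to 0.032 with 1 library left out, positive without KO replicate 2. The KO to WT ratio of the sums was 0.929 to 0.998 (large) and 0.965 to 1.01 (small) with 1 library left out.

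Signs near 0 turned for uncalled members. With limma on log2(RPKM + 1), with or without a filter, and on log2(RPKM + 0.1), Mrpl3 was at 0.013, Mrpl53 at 0.084 and 0.087, and Mrps18a at 0.086 and 0.088. With length and GC offsets Mrpl3 was at 0.061, Mrpl53 at 0.068, Mrps18a at 0.0069, Mrps18c at 0.030 and Mrps30 at 0.041. With 1 library left out, Mrpl3 ranged from -0.20 to 0.046, Mrpl44 from -0.0043 to 0.59, Mrpl53 from -0.19 to 0.12, Mrps18a from -0.089 to 0.090, Mrps28 from -0.19 to 0.21, Mrps30 from -0.18 to 0.034 and Mrps36 from -0.16 to 0.27. The cause was not tested. Upper-quartile scaling, added after the data were seen, changed no call of a member.

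Same-numbered libraries correlated at 0.028, 0.012 and -0.00033 in their deviations. KO replicates 1 and 2 correlated best with their own number, and KO replicate 3 with WT replicate 2 (0.013). Correlations over all pairs ran from -0.023 to 0.028, all near 0, so the replicate numbers gave no clear pairing. With the replicate number as a block 1341 genes were called, with 1 member higher and 2 lower. With this depth and 3 libraries a group, a member without a call may still have changed: the 95% interval lay within -1 and 1 for 66 of 77 members and within -0.5 and 0.5 for 4.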
